A study of Homo sapiens with 27 samples.

Results

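The genes described here are 10 components of prolactin and gp130 cytokine receptor signaling. They are the receptors PRLR, GHR, CNTFR, IL6ST and LIFR, the transcription factors STAT5A, STAT5B and ELF5, and the inhibitors SOCS2 and CISH. They were chosen by name, with earlier results of these data known. All 10 were found among the 26485 genes counted and among the 14789 genes that passed the filter on low counts. SOCS2 and CNTFR passed that filter through the lines in which they were high. RNA-seq was performed on T47D, a luminal breast cancer cell line, to ask how truncated forms of the transcription factor GATA3 affect gene expression. The control line carried the empty pHAGE lentiviral vector, and the others expressed mutant GATA3 (Splice del, C321fs or A333fs) as a 3xTy-1 fusion. All 4 lines were selected with puromycin and kept their own wild-type GATA3. Each line was 1 selected population that gave 3 libraries, so an effect of the mutant and a trait of that population cannot be told apart. The study calls the libraries of a line biological replicates. Neither its methods nor the labels say whether they came from separate cultures, and if they did not, the p-values measure technical spread. The labels also name a growth medium other than that of the study's methods, so the serum and hormones that the cells received are not settled.

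Prolactin and growth hormone bind dimeric receptors that carry the kinase JAK2, which phosphorylates STAT5A and STAT5B. The phosphorylated STAT5 proteins enter the nucleus and activate genes that include CISH and SOCS2, whose products in turn dampen the receptor. In the mammary gland this pathway, together with the ETS factor ELF5, drives alveolar and milk-producing cells. Cytokines of the interleukin 6 family use a different set of receptors that share IL6ST (gp130), pair with LIFR or CNTFR for some ligands, and signal mainly through STAT3.

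The promoter of CISH is shown because this gene is a classical STAT5 target and was the only member called in all 3 mutant lines. STAT5 dimers recognise the spacing TTCNNNGAA, which reads the same on both strands. Sequences were taken from RefSeq (GRCh38.p14) as windows of 300 bases around a transcription start, which were found for 9 of the 10 members with 20 windows. SOCS2 had none. The CISH window, chr3:50611725-50612024 on the minus strand, is printed 5′ to 3′ with the matches in capitals.
CISH: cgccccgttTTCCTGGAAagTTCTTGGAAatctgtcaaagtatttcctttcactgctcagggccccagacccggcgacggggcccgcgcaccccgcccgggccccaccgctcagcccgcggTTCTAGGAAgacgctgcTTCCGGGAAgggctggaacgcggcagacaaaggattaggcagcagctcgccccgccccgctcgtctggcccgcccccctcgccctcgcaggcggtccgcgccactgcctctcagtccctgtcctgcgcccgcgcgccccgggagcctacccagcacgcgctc
The 4 matches are TTCCTGGAA, TTCTTGGAA, TTCTAGGAA and TTCCGGGAA. They began 241, 230, 129 and 112 bases before the start and did not overlap each other. Of 35116 promoter windows of this length, 2689 (7.66%) held at least 1 such match and 7 (0.0199%) held at least 4. Among the other members, matches were found in 2 of 3 windows of LIFR and in 1 of 7 of GHR. The GATA consensus, which is GATA after A or T and before A or G, searched on both strands, was in 8769 windows (25.0%). Among the members it was found in 3 windows of GHR and in 1 of 2 windows of PRLR, where it began 110 bases before the start. In the study, GATA motifs at the peaks of these mutants seemed to lack this consensus and showed a partial form, GAT after A or T. That form was not searched here. A match describes the letters of these windows and is not evidence of binding.

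Libraries held 27872208 to 36788024 counted fragments. TMM scaling factors were 0.884 to 0.943 in the control libraries and 1.01 to 1.05 in the mutant libraries. Log2 CPM (counts scaled to a common library size after TMM) also followed GC content differently, with a slope per 10 points of GC of 0.14 ± 0.04 (SD, n = 3) in control, -0.17 ± 0.04 in A333fs, -0.07 ± 0.07 in C321fs and -0.08 ± 0.05 in Splice del. The GC content of the members' exons ranged from 36.7% in IL6ST to 62.7% in CNTFR, so values with this trend removed are given beside the results that they change. The summed CPM of 8 luminal markers was 17700 to 20900 in control and 11500 to 14400 in the mutant lines. Most of this sum was the keratins KRT8, KRT19 and KRT18 (means 7520, 5560 and 2610 CPM in control). Of the 8 markers, 3, 2 and 1 were called lower in Splice del, C321fs and A333fs and 0 higher, by the rule given below. EPCAM went the other way, with means of 208 CPM in control, 278 in Splice del and 268 in both C321fs and A333fs. All 3 endothelial markers, PTPRC and CD3E of 5 leukocyte markers, COL1A2, PDGFRB and FAP of 6 fibroblast markers and KRT5 of 4 basal markers had at most 3 counts in every library. The summed CPM of the basal markers was 20 to 22 in A333fs and 12 to 18.6 in the other lines, that of the fibroblast markers was 29.7 to 33.5 in A333fs and 40.9 to 65 in the other lines, and that of the leukocyte markers was 5.29 to 8.46. Most of the basal sum was ACTA2 (mean 20.2 CPM in A333fs), and most of the fibroblast sum was COL1A1 (mean 30.1 CPM in A333fs). GATA3 itself was at 1280 ± 50.8 CPM in control, 1020 ± 11 in A333fs, 1000 ± 45 in Splice del and 1140 ± 12.5 in C321fs. The counts do not separate wild-type from mutant transcripts, and the part of these series-wide differences in the results below was not tested. In these bulk libraries, fewer cells that express a gene and less RNA per cell cannot be told apart.

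PRLR was by far the most abundant of the 10 genes per length, at 146 CPM per kb of exon averaged over the 12 libraries. ELF5 (71.2 CPM per kb) and IL6ST (38.1 CPM per kb) followed. CISH, STAT5B and GHR were close to each other at 13.6, 12.2 and 11.4 CPM per kb, and their order differed between lines. STAT5A was at 0.517 CPM per kb. CNTFR, LIFR and SOCS2 were at 0.109, 0.0874 and 0.0849 CPM per kb. The level of PRLR was higher than that of 96.9% of the tested genes, and those of LIFR and SOCS2 were higher than that of 1.99% and 1.91%. Transcripts of the prolactin receptor and of the shared gp130 subunit were thus abundant per length, and those of the ligand-specific partners CNTFR and LIFR were scarce.

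**Figure D1:**
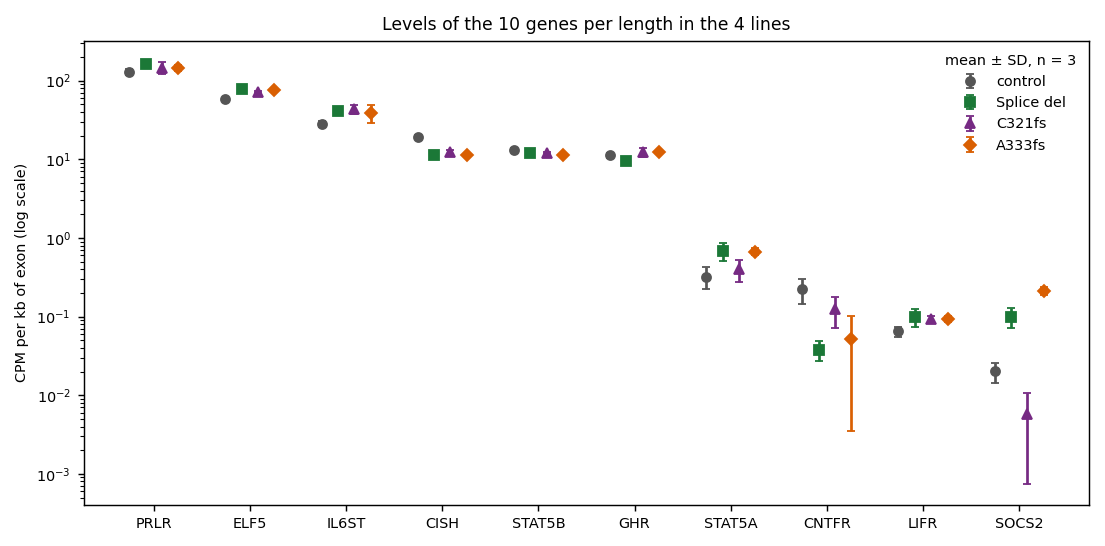
Mean level of each gene in CPM per kb of exon on a log axis, with the SD of 3 libraries, for the control, Splice del, C321fs and A333fs lines. PRLR, ELF5 and IL6ST stand highest in every line, and SOCS2 ranges from 0.0057 CPM per kb in C321fs to 0.214 in A333fs.

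A gene was called when edgeR's quasi-likelihood test gave a Benjamini-Hochberg adjusted p below 0.01 over all tested genes and the fold change was over 1.5. Against control, 4 of the 10 members were called in Splice del cells, where 10.7% of all tested genes were called. In C321fs cells 2 were called (6.88% of all genes), and in A333fs cells 4 (12.3% of all genes). In Splice del, SOCS2 and STAT5A were called higher (6.21% of all genes were) and CISH and CNTFR lower (4.53%). In A333fs, SOCS2 and STAT5A were called higher (5.46%) and CISH and CNTFR lower (6.81%). In C321fs, IL6ST was called higher (4.63%) and CISH lower (2.26%). The 3 comparisons share the control libraries. Since the members were chosen with earlier results of these data known, their counts beside these shares are a description. The median log2 fold change of the members was 0.38, 0.16 and 0.28 in Splice del, C321fs and A333fs, against 0.03, 0.02 and 0.01 over all genes. With the GC and length trend removed the median over all genes was -0.05, -0.04 and -0.05, and that of the members was not computed. In that fit the increases of PRLR, IL6ST, LIFR and ELF5 were smaller or absent in every mutant line, and GHR was lower. Those of STAT5A were larger, and the falls of CISH were smaller. The 3 libraries of a mutant line lay wholly above or below the 3 control libraries for 9 members in Splice del, for 8 in A333fs and for 5 in C321fs. The same held for 62.9%, 65.5% and 54.1% of all genes, so such separation is common in these data. A test of any difference among the 4 lines passed an adjusted p of 0.01 for 8 members, all but PRLR and LIFR, and for 56.2% of all genes.

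**Figure D2:**
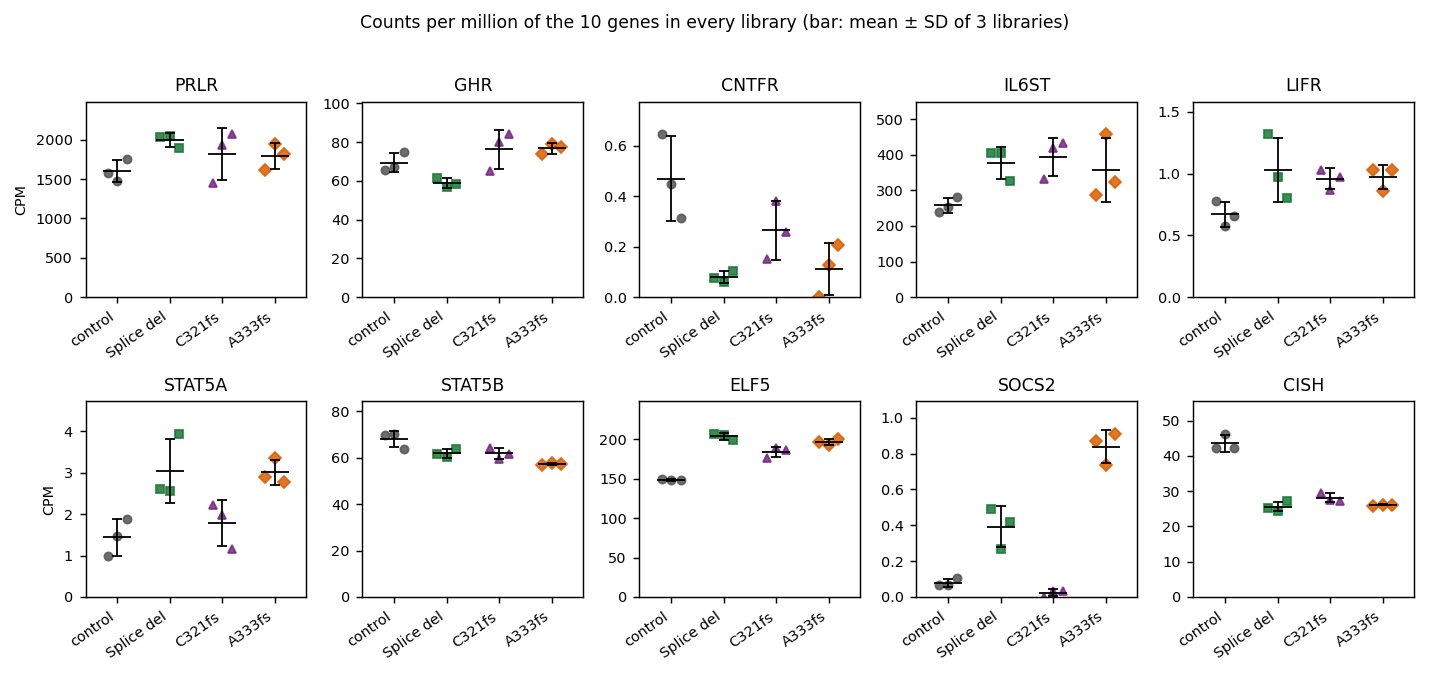
CPM of each of the 10 genes in every library of the 4 lines, with the mean and SD of 3 libraries as a bar; each panel has its own axis from 0. The control libraries of CISH lie above all mutant libraries and those of ELF5 below them, and SOCS2 is at most 0.104 CPM in control and C321fs.

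SOCS2 encodes an inhibitor that is induced by growth hormone and prolactin and that targets signaling components for degradation. It is at chr12:93569822-93576745 on the plus strand (hg38). Control libraries held 2, 2 and 3 SOCS2 counts and C321fs libraries held 0, 1 and 1. Splice del libraries held 19, 9 and 12 counts, and A333fs libraries held 27, 23 and 31. Every Splice del and A333fs library therefore lay above every control and C321fs library, and every A333fs library lay above every Splice del library.
The means were 0.0787 ± 0.0221 CPM (SD, n = 3) in control, 0.391 ± 0.114 in Splice del and 0.838 ± 0.0926 in A333fs. The ratio of summed counts per effective library size was 5.05 for Splice del over control (95% interval 2.24 to 13.3) and 10.7 for A333fs over control (4.98 to 27.6). These exact binomial intervals cover counting error only. The edgeR adjusted p was 0.000719 for Splice del and 4.97e-06 for A333fs. Both calls held with any 1 library left out. SOCS2 passed the filter on low counts through the lines in which it was high, and both calls were also made without that filter.
No fold change is given for C321fs against control, since both lines were at or below 3 counts in every library. Between the mutant lines, SOCS2 was called higher in Splice del than in C321fs, with a ratio of 18.3 (4.74 to 156) and an edgeR adjusted p of 3e-04. It was also called higher in A333fs than in C321fs, with a ratio of 38.9 (10.4 to 327) and an adjusted p of 2.26e-06. It was the only member called in either comparison, in which 2.64% and 5.55% of all genes were called. A333fs exceeded Splice del by 1.08 ± 0.28 (SE) on the log2 scale at an adjusted p of 0.0101, just above the threshold. With the GC and length trend removed this difference was 1.11 at an adjusted p of 0.0058. SOCS2 was thus at the floor in C321fs and control and higher in A333fs than in Splice del in both fits, with the call of that difference made in the second alone. KRT14, a basal keratin among the marker genes, held 0 to 1 counts in control and 2 to 8 in Splice del. It held 0 to 3 in C321fs and 16 to 21 in A333fs. The basal marker TP63 followed another order. It held 7 to 11 counts in control, 3 to 12 in Splice del, 23 to 24 in C321fs and 11 to 22 in A333fs. ACTA2 was highest in A333fs (598 to 715 counts), and KRT5 had at most 3 counts in every library. The part of these markers in the SOCS2 result was not tested.

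CISH, an SH2-domain inhibitor that competes with STAT5 for the activated receptor, lies at chr3:50606454-50611831 on the minus strand. Control libraries were at 42.3, 46.2 and 42.2 CPM. Splice del libraries were at 25.2, 24.4 and 27.1 CPM, C321fs libraries at 29.6, 27.5 and 27.3, and A333fs libraries at 25.9, 26.2 and 26.2. All 9 mutant libraries were below all 3 control libraries, from 777 to 978 counts against 1215 to 1440.
CISH fell by 0.77 on the log2 scale in Splice del (SE 0.06, edgeR adjusted p 1.61e-07). It fell by 0.63 in C321fs (SE 0.06, adjusted p 2.91e-06) and by 0.74 in A333fs (SE 0.06, adjusted p 1.99e-07). These are levels 1.7-fold, 1.55-fold and 1.67-fold below control. The 3 mutant lines differed from each other by -0.14 (Splice del against C321fs), -0.11 (A333fs against C321fs) and 0.03 (A333fs against Splice del) on the log2 scale, and no difference between them passed (smallest adjusted p 0.173, edgeR). The 95% intervals of those differences were -0.27 to -0.01 for Splice del against C321fs, -0.24 to 0.02 for A333fs against C321fs and -0.1 to 0.16 for A333fs against Splice del. With the GC and length trend removed, the log2 fold changes against control were -0.62, -0.5 and -0.44 with edgeR adjusted p of 2.18e-09, 9.52e-08 and 3.38e-07. The last pair are smaller than the fold limit, so that CISH was then called in Splice del alone. In that fit the difference of A333fs from Splice del was 0.18 at an adjusted p of 0.00671, below the fold limit, and that of A333fs from C321fs was 0.07 (0.307), with the opposite sign to the -0.11 above. Scaling by library size alone also brought Splice del (-0.58) and C321fs (-0.46) below the fold limit, as did upper-quartile scaling for C321fs (-0.54). Leaving out any 1 library ended none of the 3 calls.

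STAT5A (chr17:42287547-42311942, plus strand) and STAT5B (chr17:42199177-42276406, minus strand) are neighbouring genes that encode closely related factors. STAT5A was at 0.984, 1.48 and 1.88 CPM in the control libraries and at 2.22, 1.98 and 1.17 in C321fs. It was at 2.61, 2.57 and 3.94 CPM in Splice del and at 2.9, 3.35 and 2.79 in A333fs. Each Splice del and A333fs library was above each control and C321fs library, while control and C321fs overlapped.
The level was 2.08-fold that of control in Splice del (log2 1.05 ± 0.25 SE, edgeR adjusted p 0.00197) and in A333fs (1.06 ± 0.25, adjusted p 0.00165). In C321fs the log2 difference from control was 0.31 (95% interval -0.26 to 0.88, adjusted p 0.349). The difference between Splice del and C321fs was 0.74 ± 0.24 (adjusted p 0.0511) and that between A333fs and C321fs 0.75 ± 0.24 (adjusted p 0.0273), neither of which was called. A difference in response between the lines was therefore not shown for STAT5A in this fit, although with the GC and length trend removed A333fs against C321fs was called (0.86, adjusted p 0.00539). Without the filter on low counts both differences were called (0.75, adjusted p 0.00433, and 0.78, adjusted p 0.00153). Both calls against control rested on control replicate 1, the lowest STAT5A library. Without it the log2 fold changes were 0.84 in Splice del (adjusted p 0.014) and 0.85 in A333fs (adjusted p 0.012). Without Splice del replicate 3, the highest, the value in Splice del was 0.84 at an adjusted p of 0.0108.

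STAT5B differed little between lines. Its mean was 57.2 ± 0.523 CPM in A333fs, 61.8 ± 2.33 in C321fs, 61.9 ± 1.87 in Splice del and 67.9 ± 3.51 in control. The A333fs libraries, at 56.7 to 57.8 CPM, were below all others. In A333fs the log2 fold change was -0.25 ± 0.06 (edgeR adjusted p 0.00122), below the fold limit. In Splice del and C321fs it was -0.14 in both (adjusted p 0.0492 and 0.0494), and with library size alone as the scaling these turned to 0.05 and 0.03.
Per length, STAT5A made up 1.58% to 3.22% of the summed STAT5A and STAT5B level in the control libraries and 2.1% to 3.78% in C321fs. It made up 4.59% to 6.53% in Splice del and 5.24% to 6.17% in A333fs. STAT5B was thus the predominant STAT5 transcript in every line. Fragments that map to several places were not counted, and the annotated transcripts share 170 stretches of 100 bases, 6.55% of those of STAT5A and 5.17% of those of STAT5B, and the effect of this on the levels was not tested.

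ELF5 is an ETS factor of the luminal progenitor and alveolar lineage and lies at chr11:34478795-34513800 on the minus strand. Its control libraries were at 150, 148 and 148 CPM. The Splice del libraries were at 207, 206 and 199 CPM, the C321fs libraries at 177, 189 and 187, and the A333fs libraries at 197, 193 and 200. All mutant libraries were above all control libraries, and C321fs was below the other mutant lines.
Against control, ELF5 differed by 0.45 ± 0.05 on the log2 scale in Splice del (edgeR adjusted p 1.76e-06), 0.31 ± 0.05 in C321fs (9.91e-05) and 0.4 ± 0.05 in A333fs (4.32e-06). These are increases of 36.9%, 23.6% and 31.9%, all below the fold limit. The SD of its control libraries, 1.25 CPM at a mean of 149 CPM, was the smallest of all members relative to the level. With the GC and length trend removed, the values were 0.21 (adjusted p 0.000105), 0.08 (0.119) and 0.1 (0.0437), so that only the difference in Splice del kept an adjusted p below 0.01.

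The hormone receptors PRLR and GHR both lie on chromosome 5 and were not called in any comparison. PRLR (chr5:35048756-35230589, minus strand) was at 1580, 1470 and 1750 CPM in control and at 2030, 2050 and 1890 in Splice del. It was at 1450, 1930 and 2070 CPM in C321fs and at 1610, 1940 and 1820 in A333fs. The Splice del libraries were all above control, whereas the C321fs and A333fs libraries overlapped it.
The log2 fold changes were 0.31 (95% interval 0.09 to 0.54, edgeR adjusted p 0.021), 0.18 (-0.04 to 0.41, 0.165) and 0.16 (-0.07 to 0.39, 0.211). All of these intervals exclude a 1.5-fold change in either direction. With the GC and length trend removed the values were 0.09, -0.03 and -0.05, so the direction in C321fs and A333fs depended on the fit.
GHR, the growth hormone receptor (chr5:42423775-42721878, plus strand), was lowest in Splice del. Its libraries there were at 61.5, 56.9 and 58.4 CPM, below control at 65.7, 67.2 and 74.9. C321fs was at 64.9, 79.9 and 84.1 CPM and A333fs at 73.8, 79.2 and 77.3. The difference from control was -0.23 ± 0.08 in Splice del (edgeR adjusted p 0.0253), 0.14 ± 0.08 in C321fs (0.169) and 0.15 ± 0.08 in A333fs (0.132). With the trend removed it was -0.49, -0.06 and -0.14 (edgeR adjusted p 1.23e-07, 0.314 and 0.0233). In that fit GHR in Splice del thus passed the p threshold but stayed below the fold limit. Splice del was 0.37 ± 0.08 below C321fs on the log2 scale (edgeR adjusted p 0.00666), and A333fs was 0.38 ± 0.08 above Splice del (adjusted p 0.0037). Both differences are below the fold limit.

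IL6ST encodes gp130, the signal-transducing subunit that all cytokines of the interleukin 6 family share, and lies at chr5:55935097-55994993 on the minus strand. Its level per length was 26.4, 27.7 and 31 CPM per kb in the control libraries. It was 44.4, 44.4 and 35.8 CPM per kb in Splice del and 36.6, 45.9 and 47.4 in C321fs. The A333fs libraries were at 31.6, 50.3 and 35.7 CPM per kb. Every mutant library was above every control library, and A333fs replicate 2 was the highest of all.
Levels were 1.53-fold those of control in C321fs (log2 0.61 ± 0.14 SE, edgeR adjusted p 0.00216), which was called. In Splice del the log2 fold change was 0.55 ± 0.14 (edgeR adjusted p 0.00371), which is 1.46-fold and just under the fold limit of 1.5. In A333fs it was 0.47 ± 0.14 (edgeR adjusted p 0.00936), which is 1.38-fold and also below the limit. The mutant lines did not pass against each other, and the intervals of their differences were -0.36 to 0.24 for Splice del against C321fs, -0.44 to 0.15 for A333fs against C321fs and -0.38 to 0.21 for A333fs against Splice del. The call in C321fs was lost without control replicate 1 (log2 0.56, adjusted p 0.0125) or control replicate 2 (0.59, 0.0122). It was also lost without C321fs replicate 2 (0.57, 0.0129) or C321fs replicate 3 (0.54, 0.00979). In Splice del, IL6ST was called without control replicate 3 (0.62, adjusted p 0.00648) or Splice del replicate 3 (0.65, 0.00222), and in A333fs without A333fs replicate 1 (0.6, 0.0016). IL6ST had the lowest GC content of the members, and with the trend removed the values were 0.26, 0.3 and 0.21 (adjusted p 0.00149, 0.000633 and 0.00946), none of them called.

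CNTFR and LIFR, which pair with gp130 for ciliary neurotrophic factor and leukemia inhibitory factor, were close to the detection limit. CNTFR (chr9:34551432-34590140, minus strand) had 19, 14 and 9 counts in control and 5, 11 and 8 in C321fs. Splice del libraries had 3, 2 and 3 counts, and A333fs libraries had 0, 4 and 7. Splice del and A333fs lay below control without overlap, and C321fs overlapped it.
The ratio of control over Splice del was 5.95 (95% interval for counting error 2.76 to 14.7; edgeR adjusted p 0.00215). CNTFR was 4.01-fold lower in A333fs than in control (log2 -2.01 ± 0.56, edgeR adjusted p 0.00559). In C321fs the log2 difference was -0.84 (95% interval -1.84 to 0.15, adjusted p 0.145). CNTFR passed the filter on low counts through the lines in which it was high. Its calls in Splice del and A333fs were also made without that filter. The call in Splice del was lost without control replicate 1 (-2.22, adjusted p 0.0136), Splice del replicate 1 (-2.49, 0.011) or Splice del replicate 2 (-2.35, 0.0115). The call in A333fs was lost without control replicate 1 (-1.72, adjusted p 0.0327), control replicate 2 (-2.04, 0.0152), A333fs replicate 1 (-1.46, 0.0178) or A333fs replicate 2 (-2.05, 0.0121), as well as after removal of the GC and length trend (-1.62, 0.027). Without A333fs replicate 3, the highest A333fs library, the value was -2.8 (adjusted p 0.00339), so that the size of the change in A333fs rested on single libraries.
LIFR (chr5:38474963-38595405, minus strand) had 18 to 23 counts in control, 23 to 51 in Splice del, 25 to 34 in C321fs and 27 to 35 in A333fs. Its CPM was 0.577 to 0.78 in control and 0.801 to 1.32 in the mutant lines, with no overlap. The log2 fold changes of 0.64, 0.52 and 0.54 did not pass (edgeR adjusted p 0.0282, 0.0819 and 0.0619).

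**Figure D3:**
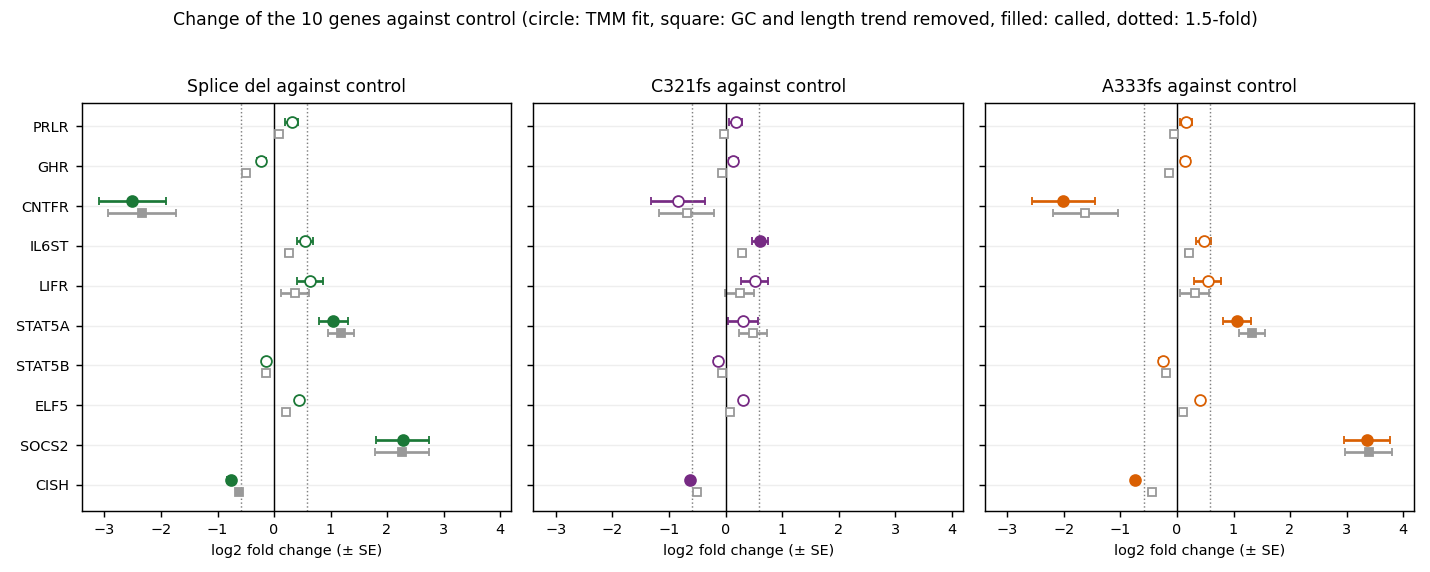
Log2 fold change with SE of the 10 genes in each mutant line against the shared control libraries, from the TMM fit (circles) and with the trend over GC content and exon length removed (squares). Filled symbols are called, dotted lines mark a 1.5-fold change, and SOCS2 in C321fs is left out because both lines are at the floor; ELF5 and IL6ST lie above 0 in all 3 panels, nearer to 0 once the trend is removed.

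In A333fs against Splice del, edgeR called none of the 10 members, while 3% of all genes were called. DESeq2 called none either, and 2 members had an unadjusted p below 0.05. The share of all genes at that unadjusted p was not computed. At an edgeR adjusted p below 0.01 with no fold limit, 684 of all 14789 genes were higher and 1078 lower. The libraries of these lines did not overlap for 3 members, SOCS2, STAT5B and GHR (46.3% of all genes). In Splice del against C321fs 6 members did not overlap (29.7% of all genes), and in A333fs against C321fs 5 (40.6%).

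The other genes of the pathway were taken from 5 lists that cover ligands and receptors, kinases, inhibitors and responding genes. Of 13 ligands and receptors of the gp130 family, 8 passed the filter. The filter left out IL6, OSM, CNTF, IL27 and EBI3, with at most 8 counts in any library. Of the 8 genes, 2 were called higher and 0 lower in Splice del, 2 higher and 0 lower in C321fs, and 1 higher and 1 lower in A333fs, with medians of 0.38, 0.15 and 0 on the log2 scale. Of all tested genes, 10.7%, 6.88% and 12.3% were called in these lines.
IL6R, the interleukin 6 receptor that pairs with gp130 (chr1:154405193-154469450), was at 1.77, 2.28 and 2.31 CPM in control and at 2.11, 2.45 and 2.71 in A333fs. It was at 4.05, 4.25 and 4.59 CPM in Splice del and at 5.55, 5.6 and 5.8 in C321fs. Splice del and C321fs lay above control and A333fs without overlap. IL6R rose by 1.02 ± 0.13 in Splice del (edgeR adjusted p 1.2e-05) and by 1.41 ± 0.13 in C321fs (1.33e-06) on the log2 scale, and in A333fs the value was 0.19 ± 0.14 (0.267).
CLCF1, a ligand of the CNTF receptor, was called higher in Splice del (0.83 ± 0.19, edgeR adjusted p 0.0014) and C321fs (0.72 ± 0.19, 0.00543). LIF, the ligand of LIFR, was called higher in A333fs (1.15 ± 0.32, 0.00612), from 0.466 ± 0.125 to 1.05 ± 0.141 CPM. IL27RA, the interleukin 27 receptor, fell in A333fs by 0.68 (SE 0.08, edgeR adjusted p 5.78e-06). The C321fs call of CLCF1 was lost without any 1 of the control libraries (log2 0.63, 0.79 and 0.73) or C321fs replicate 1 (0.42). The call of LIF was lost without control replicate 1 (1.06) or 3 (1.03) or any 1 A333fs library (1.21, 1.08 and 1.21), and that of IL27RA without A333fs replicate 2 (-0.57). With the GC and length trend removed, IL27RA was no longer called in A333fs (-0.33), and CLCF1 was called in A333fs as well (0.65, adjusted p 0.00536).

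Of 18 other cytokine receptors and hormones, 13 passed the filter, and GH1, CSF3R, CSF2RB, IL2RG and IL7R did not, with at most 4 counts in any library. Splice del had 1 gene called higher and 1 lower (10.7% of all genes were called), and A333fs had 2 higher and 1 lower (12.3%). In C321fs edgeR and DESeq2 called none (6.88% of all genes with edgeR), while 6 of the 13 had an unadjusted p below 0.05. Small p-values were common in these data. Of all 14789 genes, 2382 were higher and 3067 lower in C321fs at an edgeR adjusted p below 0.01 with no fold limit.
PRL, the gene of prolactin itself (chr6:22287244-22302853), was at 0 to 2 counts in control, 2 to 11 in Splice del, 1 to 3 in C321fs and 13 to 17 in A333fs. The A333fs libraries were above those of all other lines. The ratio of A333fs over control was 13.3 (95% interval for counting error 4.26 to 67; edgeR adjusted p 0.000179), and that of Splice del over control was 5.89 (1.75 to 30.9; adjusted p 0.0133), which was not called. PRL passed the filter on low counts through A333fs, the line in which it was high, and in a fit without that filter it was called in A333fs as well (edgeR adjusted p 2.73e-05). LEPR, the leptin receptor, was called higher in Splice del (0.65 ± 0.18, edgeR adjusted p 0.00767) and A333fs (0.78 ± 0.18, 0.00172). IL4R, the interleukin 4 receptor, fell by 0.69 (SE 0.1, edgeR adjusted p 2.31e-05) and 0.86 (SE 0.1, 2.97e-06) in the same lines. The LEPR call in Splice del was lost without any 1 of the control libraries (log2 0.61, 0.59 and 0.73), Splice del replicate 1 (0.48) or Splice del replicate 2 (0.65), and that in A333fs without control replicate 2 (0.73). With the trend removed, LEPR (0.29 and 0.46) and IL4R (-0.56 and -0.58) were not called in either line.

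Among the Janus kinases and other STATs, 7 of 8 genes passed the filter, all but STAT4. Neither edgeR nor DESeq2 called any of them against control, and 5, 6 and 5 of the 7 had an unadjusted p below 0.05 in Splice del, C321fs and A333fs. The share of all genes at that unadjusted p was not computed. At an edgeR adjusted p below 0.01 with no fold limit, 2, 3 and 3 of the 7 passed. Of all 14789 genes at that threshold, 2766 were higher and 3314 lower in Splice del. In C321fs 2382 were higher and 3067 lower, and in A333fs 3112 and 3902. JAK1 had log2 fold changes of 0.39, 0.39 and 0.56 (edgeR adjusted p 0.000129, 2e-04 and 4.24e-06), and JAK2 of 0.2, 0.39 and 0.24 (0.202, 0.0193 and 0.126). After removal of the GC and length trend, JAK2 was at -0.14, 0.07 and -0.11 (edgeR adjusted p 0.381, 0.696 and 0.512), so its direction in Splice del and A333fs depended on the fit. STAT3, the main effector of gp130, was at 0.1, -0.28 and 0.21 (edgeR adjusted p 0.137, 0.000743 and 0.00389).
All 21 inhibitors and adaptors passed the filter. edgeR and DESeq2 called none of them against control, with 12, 11 and 18 at an unadjusted p below 0.05. At an edgeR adjusted p below 0.01 with no fold limit, 10, 5 and 11 of the 21 passed. These are to be read beside the counts over all genes just given. SOCS3, the feedback inhibitor of gp130, was at 0.01, -0.13 and 0.13 (edgeR adjusted p 0.964, 0.601 and 0.575), and at 0.18, 0.03 and 0.48 with the trend removed (0.405, 0.913 and 0.0317). Among the members and this list, SOCS2 and CISH were thus the only inhibitors called against control.

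Of 22 genes known to respond to prolactin and STAT5 or to gp130 and STAT3, 14 passed the filter. The milk protein genes CSN1S1, CSN2, CSN3 and LALBA had at most 1 count in any library, and IGF1, TNFSF11, HGF and FGL1 did not pass the filter either. Splice del had 1 gene called higher and 1 lower, C321fs 2 higher and 2 lower, and A333fs 1 higher and 2 lower, with median log2 fold changes of -0.14, 0.06 and -0.36. The share of all genes called was 10.7%, 6.88% and 12.3%.
PIP, the prolactin-induced protein of apocrine and breast cells, had the largest log2 fold change of the 14 genes in all 3 lines. It was at 77, 79.1 and 85.7 CPM in control, at 278, 287 and 295 in Splice del, at 177, 195 and 200 in C321fs and at 160, 162 and 170 in A333fs. The 4 lines did not overlap. PIP rose by 1.83 ± 0.06 in Splice del (edgeR adjusted p 5.44e-12), by 1.24 ± 0.06 in C321fs (1.81e-09) and by 1.03 ± 0.06 in A333fs (3.51e-09) on the log2 scale.
MYC, a growth factor-responsive transcription factor, was at 123 to 138 CPM in control. It was at 61.7 to 65.7 CPM in Splice del, 80.1 to 82.5 in C321fs and 67.1 to 68.4 in A333fs. It fell by 1.02 (SE 0.06, edgeR adjusted p 2.13e-09), 0.66 (SE 0.05, 6.47e-07) and 0.92 (SE 0.06, 4.6e-09). WNT4, a mediator of mammary side-branching, fell in A333fs by 0.9 (SE 0.08, 5.69e-07). VEGFA, the vascular growth factor, was called higher in C321fs (0.74 ± 0.07, edgeR adjusted p 1.33e-06), where BCL3, an NF-κB cofactor, fell by 0.63 (SE 0.09, 4.94e-05). With the trend removed, MYC (-0.58) and BCL3 (-0.47) in C321fs were no longer called. BCL3 was also not called without control replicate 2 (-0.53) or C321fs replicate 2 (-0.57).

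**Figure D4:**
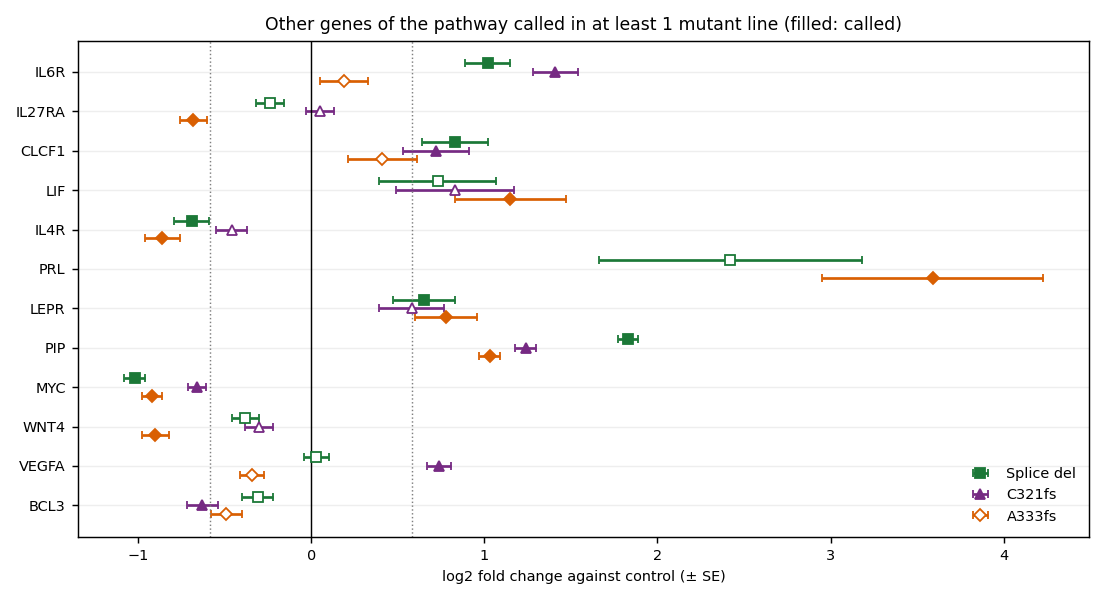
Log2 fold change with SE against control of the 12 other pathway genes called in at least 1 mutant line, for Splice del, C321fs and A333fs, with called values filled and dotted lines at a 1.5-fold change. PIP is above 0 and MYC below 0 in all 3 lines, whereas IL6R is near 0 in A333fs alone and VEGFA is called in C321fs alone; PRL in C321fs is left out because both lines are at the floor.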

How the data were processed

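The authors deposited one table of raw counts, whole numbers of fragments per gene that are neither normalized nor pooled. Per the file headers, they were made with featureCounts 1.6.4 on hg38 without strand. The submitters' notes name HISAT2 as aligner, whereas the header's path names STAR. The ChIP-seq libraries of the series were not analysed here. Libraries of 27872208 to 36788024 fragments were fitted together with edgeR 4.0.16 in R 4.3.3 (TMM, filterByExpr by line, glmQLFit and glmQLFTest, no covariates) in 6 comparisons. A call needed an adjusted p under 0.01 together with a 1.5-fold change. A line whose libraries all held 3 counts or fewer was at the floor. The trend over GC content and exon length was removed with loess offsets (span 0.3) from genes outside the members and lists.

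All members were named, and so were list genes called against control, at most 6 per list. Some list genes are not reported here and do not enter the list counts. The members, lists and alternatives were chosen with earlier results of these data known. No exon of a member overlapped another gene's exon. Library pairs of one line differed by a chi-square per gene of 2.16 to 27.8, so none was a repeat. The highest values, 15.8 and 27.8, were those of C321fs replicate 1, against 5.59 for C321fs replicates 2 and 3. Without C321fs replicate 1, 733 genes were called higher and 552 lower in C321fs against control, compared with 684 and 334 with all libraries. In simulated data for A333fs against control with 14789 genes, 196 of 200 genes changed 2-fold were recovered with 0 false calls. Recovery was not split by expression level, so it does not speak for low-count genes such as SOCS2, CNTFR and LIFR. Gene positions in the table overlapped those of RefSeq for 99.68% of 23758 matched genes. The alternatives tried are given with their effects in the closing section.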

Additional observations from a re-analysis of the deposited data

Results flagged for a closer look

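The following genes differed between mutant lines in the direct edgeR test of one mutant line against another, and were called against control in at least 1 of them. These values are log2 differences with adjusted p below 0.01 and a fold over 1.5. SOCS2 was higher by 3.96 in Splice del and by 5.04 in A333fs than in C321fs, where it had 0 to 1 counts, so that these fitted values depend on the prior and the counting ratios stand in the report. PRL was higher by 2.96 in A333fs than in C321fs, with 13 to 17 against 1 to 3 counts and a counting ratio of 8.26 (95% interval 3.28 to 26.7), and by 3.59 without C321fs replicate 1.

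IL6R differed by -1.22 in A333fs against C321fs and by -0.83 in A333fs against Splice del. IL27RA differed by -0.73 and WNT4 by -0.60 in A333fs against C321fs, and both fell below the limits with the trend removed (-0.54 and -0.47). WNT4 was also at -0.57 with RLE, upper-quartile scaling, no filter or DESeq2, at -0.52 without C321fs replicate 1 and at -0.53 without A333fs replicate 2. PIP was 0.59 higher in Splice del than in C321fs (0.57 without Splice del replicate 2 and 0.54 without C321fs replicate 3) and differed by -0.81 in A333fs against Splice del. VEGFA differed by -0.71 in Splice del and by -1.08 in A333fs against C321fs, the line in which it was highest. The causes were not tested.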

How the results depend on the processing

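SOCS2 in A333fs was called under all 23 alternatives in which it was tested, and in Splice del under 21 of 22. CISH was called in 22, 20 and 22 of 24 in Splice del, C321fs and A333fs. Over all 24 settings and 68 values of members and named genes, 1489 of 1612 values kept their direction and side of the threshold, 91 lost a call, 26 gained one and 6 reversed.

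The members called in Splice del, C321fs and A333fs against control were 4, 2 and 4. They were 1 in C321fs with upper-quartile scaling and 1 with library size alone. They were 2 in Splice del and 2 in A333fs with at least 10 counts in every library, which leaves SOCS2 and CNTFR out, and 2 in Splice del for the libraries of the pair alone, where the same genes were not tested. They were 7 in A333fs with no limit on the fold change. In a test against a 1.5-fold change they were 0, 0 and 1, SOCS2. After removal of the GC and length trend they were 0 in C321fs and 2 in A333fs. For Splice del against C321fs the count of 1 became 2 with no filter on low counts, 0 with at least 10 counts, 0 for the pair alone and 2 with no fold limit. For A333fs against C321fs the count of 1 became 2 with no filter, at an adjusted p of 0.05 and with the trend removed, and 0 with at least 10 counts. For A333fs against Splice del the count of 0 became 1 with RLE, with upper-quartile scaling, at an adjusted p of 0.05, with no fold limit and with the trend removed. The 8 members differing among the lines became 5 with at least 10 counts. Other changes of a count by a factor of at most 1.5 are left out here. Against control, STAT5B turned to 0.05 in Splice del and 0.03 in C321fs with library size alone. With the trend removed, PRLR turned to -0.03 and GHR to -0.06 in C321fs, and PRLR to -0.05 and GHR to -0.14 in A333fs.

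With 1 library left out, the counts against control were 2 to 5, 1 to 2 and 2 to 4, those between mutant lines 1 to 1, 1 to 1 and 0 to 1, and 5 to 9 members differed. Without control replicate 1, members called fell to 2, 1 and 2 as CNTFR and STAT5A were lost in Splice del and A333fs and IL6ST in C321fs. Without control replicate 2, C321fs replicate 2 or C321fs replicate 3, C321fs had 1. Without control replicate 1, control replicate 2 or Splice del replicate 2, 5 members differed among the lines, and without C321fs replicate 1, 1 member was called in A333fs against Splice del.

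With library size alone the median of all genes moved to 0.22, 0.19 and 0.16 in Splice del, C321fs and A333fs, and with upper-quartile scaling to 0.12, 0.11 and 0.12. Called genes were then 2025 higher and 171 lower, 1518 and 110, and 1544 and 380 with library size alone. They were 1321 and 348, 1024 and 163, and 1329 and 475 with upper-quartile scaling, against 918 and 670, 684 and 334, and 808 and 1007 with TMM. The call of IL4R in Splice del was lost (-0.50) with library size alone, and those of MYC and BCL3 in C321fs and of IL27RA in A333fs with either scaling. Libraries with the same replicate number did not deviate together (mean correlation -0.00915 over 18 pairs, 2 of them over 0.1). With the number as a replicate block, members called stayed at 4, 2 and 4 against control and at 1, 1 and 0 between mutant lines, and 7 differed among the lines. DESeq2 gave no adjusted p for CNTFR in 3 comparisons. Counts of SOCS2, CNTFR, LIFR and PRL limit what depth can show. The cause of each change not named above was not tested.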

Other observations

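For the members called in at least 1 comparison, the tested genes with the most similar log2 CPM over the 12 libraries are named as a description, without a test. The libraries share 4 lines, so that any gene with the same order of lines correlates. CISH was most similar to NPLOC4 (Pearson r 0.996) and TRIM28 (0.993), and IL6ST to HIBCH (0.984) and ZNF84 (0.982). SOCS2 was most similar to SLC20A2 (0.988) and SLC22A23 (0.984), STAT5A to NWD1 (0.934) and REXO2 (0.906), and CNTFR to NEK6 (0.915) and MGC16275 (0.908).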
